A study of Homo sapiens with 2 samples.

Results

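NFE2L2, which encodes the transcription factor NRF2, its repressor KEAP1 and 8 genes known as NRF2 targets were examined in bronchial epithelial cells with and without overexpression of cystathionine beta-synthase (CBS). The 10 genes were taken by symbol from a table of 60619 genes. RNA sequencing of total RNA was done on HBEC-3KT, an immortalised human bronchial epithelial line that grows as basal-like cells on gelatin-coated plastic. One group had been transduced with a pLenti6 lentivirus carrying human CBS and the other with the empty pLenti6 vector, and both had passed through virus exposure for 4 to 8 hours, blasticidin selection at 10 µg/mL and 4 to 5 days of culture. With 1 library per group, the spread between cultures is unknown and the conditions could not be tested against each other. The series was designed around CBS and Polycomb repressive complex 2, and the antioxidant genes are described here from the same transcriptomes.

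NRF2 is controlled mainly through its protein. KEAP1 is the adaptor of a CUL3 ubiquitin ligase that marks NRF2 for degradation, and oxidants or electrophiles that modify cysteines of KEAP1 let NRF2 accumulate, pair with a small MAF protein and bind antioxidant response elements near its targets. In airway epithelium these targets serve glutathione synthesis, thioredoxin reduction, quinone detoxification, heme breakdown and the export of conjugates. CBS lies upstream of one of these routes, because it carries the sulfur of homocysteine towards cysteine, a building block of glutathione. NRF2 protein, its place in the cell and its binding to DNA were not measured here.

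Matches to the core of the antioxidant response element, TGACNNNGC on either strand, were searched in RefSeq promoter windows (GRCh38.p14, from 250 bases before to 50 after an annotated start). The table held 11 windows for 8 of the 10 genes, and 4 windows of 3 genes (KEAP1, GCLM and TXNRD1) had a match. These sites are shown because they are the stretches where the letters bound by NRF2 occur next to a start in the genes measured. Each is printed 5′ to 3′ on the strand of the gene, with 10 bases on each side and the match in capitals. The site of OSGIN1 is a match to the AP-1 element TGACTCA, which shares its first letters with the antioxidant response element. Read on the other strand with the gc before it, that site differs from the searched core only by a G at the first C. Forms with that G were not searched.
KEAP1 site at -54: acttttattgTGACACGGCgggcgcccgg
KEAP1 site at -31: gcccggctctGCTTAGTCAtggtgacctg
GCLM site at -34: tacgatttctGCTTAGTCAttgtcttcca
TXNRD1 upstream start, site at -99: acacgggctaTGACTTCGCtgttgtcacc
TXNRD1 upstream start, site at -8: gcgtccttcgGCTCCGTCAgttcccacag
TXNRD1 downstream start, site at -102: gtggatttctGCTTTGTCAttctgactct
OSGIN1 AP-1 site at -97: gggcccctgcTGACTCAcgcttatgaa

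Positions count from the start, with -1 as the base before it. The printed stretches lie at chr19:10502807-10502835 and chr19:10502784-10502812 (minus strand) for KEAP1, both at the downstream of its 2 annotated starts. The stretch of GCLM lies at chr1:93909446-93909474 (minus strand). Those of TXNRD1 lie at chr12:104215670-104215698, chr12:104215761-104215789 and chr12:104286920-104286948 (plus strand), and that of OSGIN1 at chr16:83953133-83953159 (plus strand). In GENCODE 29 both KEAP1 matches fall inside the 5′ untranslated part of 1 of its 10 transcripts. The match at the downstream TXNRD1 start falls inside the untranslated part of 6 of 24 transcripts. The second KEAP1 match and the GCLM match are the same 9 letters, GCTTAGTCA. Among all 35116 windows of the table, 13.3% held the 9-base core and 4.95% held TGACTCA, and the 2 motifs overlapped in 0.561%. A match describes the letters only and says nothing about binding in these cells.

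Of the 10 genes, TXNRD1, OSGIN1, GCLC and NQO1 stood higher in the CBS library, ABCC3 stood lower, KEAP1 and GCLM were slightly higher, and NFE2L2, SRXN1 and HMOX1 had counting intervals that held no difference. The highest folds were close to 2 (OSGIN1 2.41, TXNRD1 2.04), and ABCC3 was 2.21-fold lower. Folds are CBS over empty vector on counts scaled by TMM, with a prior count of 5 added for log2 folds and none for folds on the linear scale. Exact 95% intervals follow in parentheses and cover counting error only, because each group holds 1 library. Reads copied by PCR are not independent molecules, so the intervals may be too narrow even for that error. Levels are given in TPM, which are scaled for transcript length and depth and can be set side by side between genes.

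**Figure D1:**
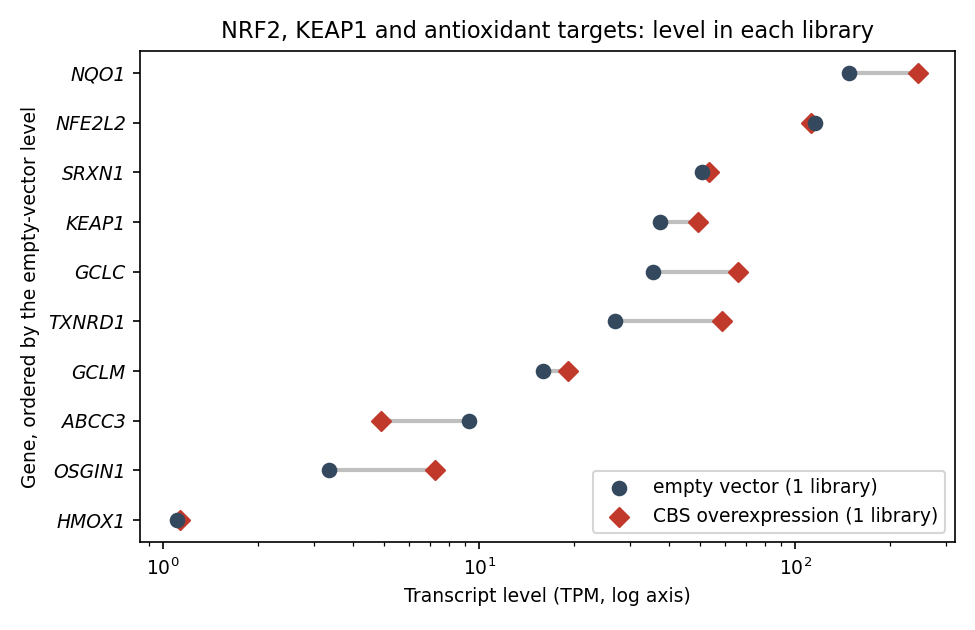
Transcript level of each gene (TPM, log axis) in the empty-vector library (circles) and the CBS library (diamonds), with 1 library per group and genes ordered by the empty-vector level. NQO1 is the highest in both, at 148 and 244 TPM, and HMOX1 the lowest, at 1.11 and 1.13 TPM.

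The libraries held 20785957 (CBS) and 20433062 (empty vector) estimated counts. CBS itself checked the labels, with 3669 counts against 280, a 12.2-fold higher level (10.8 to 13.9), and its near-identical copy CBSL followed it. All 12 basal epithelial markers passed the filter, with a summed level of 5010 TPM with CBS and 7697 with the empty vector. In other lists, FOXJ1 and SCGB3A1 of ciliated and secretory cells, 4 of 7 fibroblast markers, and PTPRC, CD3E and LYZ of immune cells had no count in either library. With CBS and the empty vector, immune markers summed to 49.1 and 146 TPM, mostly from CD68, fibroblast markers to 3.19 and 4.30, endothelial markers to 1.66 and 0.56, and ciliated and secretory markers to 1089 and 784, nearly all from the tubulin TUBB4B. Of the 12 basal markers, 8 had an interval below a ratio of 1, among them KRT14 at -2.15 (-2.26 to -2.06) and KRT15 at -1.94 (-2.03 to -1.86). The 3 with an interval above it were PDPN at 1.01 (0.73 to 1.36), NGFR at 0.93 (0.83 to 1.04) and EPCAM at 0.54 (0.45 to 0.63), and that of TP63 held no difference, at -0.04 (-0.10 to 0.01). In bulk RNA, fewer cells of a kind and less RNA per cell cannot be told apart, and the part of these markers in the antioxidant values was not tested. NFE2L2 overlaps AGPS on the opposite strand, which had 1382 and 952 counts, and since the strandedness of the libraries is not given in the sources used here, reads in the overlap cannot be told apart.

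All 10 genes passed the filter on low values (10 counts or more in 1 library and a mean CPM, the count scaled to library size, of 1 or more), which 13304 genes passed. An interval above a ratio of 1 was found for 6 of the 10, against 31.6% of all genes above the filter. An interval below 1 was found for 1 of the 10, against 31.1%. At least 2-fold higher, with an interval above 1, were 2 of the 10, against 1.41% of all genes. At least 2-fold lower was 1 of the 10, against 5.28%. Intervals narrow with depth, so the same shares were taken over genes with at least 100 counts in 1 library. All but HMOX1 reached that depth, and the shares of such genes over the whole table were 36.0% with an interval above 1, 32.0% below, 1.04% at least 2-fold higher and 3.97% at least 2-fold lower. At a threshold of 1.5-fold, 4 of the 10 genes were higher, against 7.02% of genes above the filter, and 1 was lower, against 12.9%. The median log2 fold of the 10 genes was 0.20, with 0.00 over all genes above the filter. The genes were picked with earlier results of these libraries known, so these shares are a description of them. They did not all stand on the same side, because ABCC3 lay among the lower genes while OSGIN1 and TXNRD1 lay among the higher ones.

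**Figure D2:**
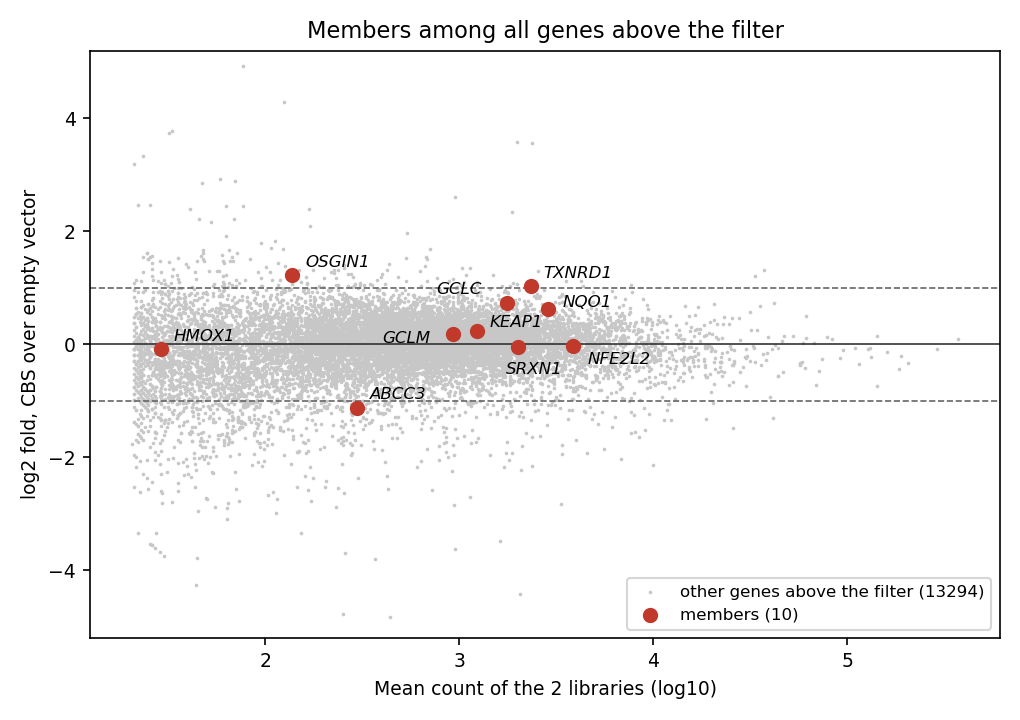
Log2 fold (CBS over empty vector) against the mean count of both libraries (log10) for all genes above the filter, with the 10 genes in red and dashed lines at a 2-fold difference. OSGIN1, at 1.22, and TXNRD1, at 1.03, lie above the upper line and ABCC3, at -1.12, below the lower one.

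The transcription factor and its repressor came first. NFE2L2 (ENSG00000116044, chr2:177227595-177392697, minus strand) was counted 3979 times with CBS and 3778 times without, or 112 and 116 TPM. Its log2 fold was -0.02 (-0.09 to 0.04), so that counting error on this scaling spanned ratios from 0.941 to 1.03. With plain library totals the value was 0.05, just outside that interval, and the median over all genes was 0.07. The transcript that encodes NRF2 was among the more abundant of the 10 in both libraries and at nearly the same level. KEAP1 (ENSG00000079999, chr19:10486120-10503741, minus strand) had 1372 and 1092 counts, or 49.3 and 37.2 TPM, and a log2 fold of 0.23 (0.12 to 0.35). The KEAP1 value depended on the measure, with 0.40 on log2(TPM + 1) and 0.50 once the trend of folds on transcript GC content and length was removed, and all 3 were higher with CBS. Within a library, where scaling has no part, NFE2L2 stood at 3.11 times the KEAP1 level in TPM with the empty vector and at 2.27 times with CBS. On counts, the ratio with CBS was 0.838 of that with the empty vector (0.764 to 0.919).

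Both subunits of glutamate-cysteine ligase, the enzyme of the rate-limiting step of glutathione synthesis, were measured. GCLC (ENSG00000001084, chr6:53497341-53616970, minus strand), the catalytic subunit, was counted 2258 times with CBS and 1261 times without, or 65.8 and 35.4 TPM. Its log2 fold was 0.74 (0.64 to 0.84), a 1.67-fold higher level and the 512th highest of the 13304 genes. GCLM (ENSG00000023909, chr1:93885205-93909456, minus strand), the modifier subunit that raises the enzyme's activity, had 1014 and 837 counts, or 19.2 and 15.9 TPM, and a log2 fold of 0.18 (0.05 to 0.31). The GCLM value was 0.26 on log2(TPM + 1) and 0.09 with the GC and length trend removed. The subunits stood apart in the size of their difference. GCLC was at 2.23 times the GCLM level in TPM with the empty vector and at 3.43 times with CBS, and the count ratio was 1.48 times higher (1.32 to 1.66). The gene without a match to the element core in its window, GCLC, was the one with the larger fold. Sequence outside the window was not searched.

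The thiol reductases also differed from each other. TXNRD1 (ENSG00000198431, chr12:104215779-104350305, plus strand), the cytosolic selenoenzyme that reduces thioredoxin with NADPH, was counted 3217 times with CBS and 1471 times without, or 58.6 and 26.9 TPM. Its log2 fold of 1.03 (0.94 to 1.12) was the 175th highest, and its interval held exactly 2-fold. SRXN1 (ENSG00000271303, chr20:646615-653370, minus strand), sulfiredoxin, which restores over-oxidised peroxiredoxins, had 2057 and 1978 counts, or 53.4 and 50.6 TPM. The log2 fold of SRXN1 was -0.04 (-0.13 to 0.05), and its sign turned to 0.08 both on log2(TPM + 1) and with the GC and length trend removed. TXNRD1 went from 0.532 of the SRXN1 level in TPM to 1.10 times that level, with a count ratio 2.10 times higher (1.92 to 2.30). Against its own substrate thioredoxin, TXN, the count ratio of TXNRD1 was 1.89 times higher (1.76 to 2.04). A ribosomal protein pseudogene within the TXNRD1 locus, RPL18AP3, had 4173 and 5923 counts and stood on the other side, lower with CBS.

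NQO1 (ENSG00000181019, chr16:69706996-69726951, minus strand) reduces quinones by a pair of electrons and is widely used as a readout of NRF2. It was counted 3567 times with CBS and 2148 times without, or 244 and 148 TPM, and was the most abundant of the 10 genes in both libraries. Its log2 fold was 0.63 (0.56 to 0.71), or 1.55-fold. NQO1 stood at 1.28 times the NFE2L2 level in TPM with the empty vector and at 2.18 times with CBS. Its paralog NQO2 had 419 and 371 counts and a log2 fold of 0.08 (-0.13 to 0.28), and the NQO1 to NQO2 count ratio was 1.47 times higher with CBS (1.26 to 1.71).

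HMOX1 (ENSG00000100292, chr22:35380361-35394214, plus strand), the inducible heme oxygenase, was the least abundant gene of the 10. It had 29 counts in each library, or 1.13 TPM with CBS and 1.11 with the empty vector. Its log2 fold of -0.08 had a wide interval (-0.89 to 0.70), so a difference of up to 1.62-fold higher or to 0.539 of the empty-vector level was not detectable at this depth. The constitutive form HMOX2 was far more abundant, at 130 and 89.0 TPM, with a log2 fold of 0.40 (0.30 to 0.50). HMOX1 is repressed by BACH1 as well as activated by NRF2, and BACH1 had 558 and 746 counts and a log2 fold of -0.51 (-0.68 to -0.36).

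OSGIN1 (ENSG00000140961, chr16:83948282-83966332, plus strand) encodes an oxidative stress-induced growth inhibitor. It was counted 199 times with CBS and 77 times without, or 7.24 and 3.35 TPM, and had the highest log2 fold of the 10 genes, 1.22 (0.89 to 1.67), 98th of all genes. The interval reached below 2-fold, and on log2(TPM + 1) the value was 0.92. With the GC and length trend removed it was 1.53. Its paralog OSGIN2 had 545 and 517 counts and a log2 fold of -0.02 (-0.20 to 0.15), and the OSGIN1 to OSGIN2 count ratio was 2.45 times higher (1.82 to 3.32). The TPM fold of OSGIN1, 2.16, was smaller than its count fold of 2.41, and the transcript length that the deposited values imply (expected count over TPM, relative to the median gene) was 21.3% longer in the CBS library. For NFE2L2 that length was 10.3% longer. A change of at least 8% in either direction was found in 27.4% of 11510 genes with at least 50 counts in each library, so such shifts were common.

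ABCC3 (ENSG00000108846, chr17:50634777-50692252, plus strand), a transporter that exports glucuronide and glutathione conjugates, was the one gene of the 10 that stood lower. It was counted 195 times with CBS and 403 times without, or 4.89 and 9.29 TPM, and had a log2 fold of -1.12 (-1.40 to -0.90). With the GC and length trend removed it was -0.96, and on log2(TPM + 1) it was -0.80, both short of 2-fold. The relative ABCC1, a glutathione conjugate pump, had 2794 and 2559 counts and a log2 fold of 0.03 (-0.05 to 0.11), and the ABCC3 to ABCC1 count ratio was 0.443 of that with the empty vector (0.369 to 0.532). The gene pairs set side by side in these paragraphs were chosen after their values were seen.

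**Figure D3:**
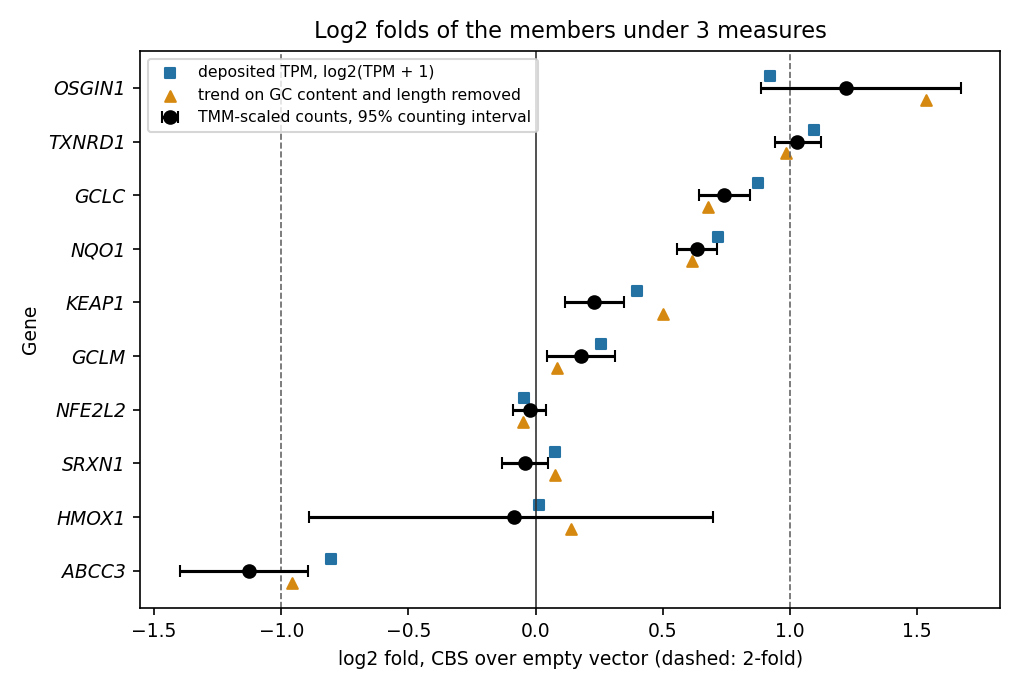
Log2 fold (CBS over empty vector) of each gene on TMM-scaled counts with its 95% counting interval (black), on the deposited TPM as log2(TPM + 1) (blue squares) and after removal of the GC and length trend (orange triangles). TXNRD1, OSGIN1, GCLC, NQO1, KEAP1 and GCLM lie above 0 and ABCC3 below 0 in all 3 measures, and dashed lines mark 2-fold.

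By level, the order of the 10 genes differed between the libraries in its middle and lower part. With the empty vector the order in TPM was NQO1, NFE2L2, SRXN1, KEAP1, GCLC, TXNRD1, GCLM, ABCC3, OSGIN1 and HMOX1. KEAP1 and GCLC were the neighbours that counting error did not separate (ratio 1.05, 0.968 to 1.14). With CBS, GCLC and TXNRD1 moved above SRXN1 and KEAP1, and OSGIN1 stood above ABCC3. There the ratio of SRXN1 to KEAP1 was 1.08 (1.01 to 1.16), the closest of the neighbours. These intervals again hold counting error only, and the error of the estimated lengths is not in them.

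Matches to the 9-base core and folds did not line up in one direction among the 8 genes with a window. Only the 9-base core was searched, and only in these windows, so a gene without a match may still have an element elsewhere. TXNRD1, with a match at each of its starts, was at 1.03, while KEAP1 and GCLM, with matches, were at 0.23 and 0.18. GCLC, NQO1 and OSGIN1 had no match to the 9-base core and were at 0.74, 0.63 and 1.22. The AP-1 site of OSGIN1, read on the other strand, differs from that core only by a G at its first C. That form was not searched, so OSGIN1 is not to be read as a gene without an element. NFE2L2 and SRXN1, also without a match, were at -0.02 and -0.04. Over 9354 genes above the filter that had a window, the median log2 fold was 0.02 with a match to the core (1824 genes) and 0.02 without one. Genes with TGACTCA, 462 in all, had a median of -0.09, against 0.02 without it.

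Other genes of the pathway were described from 10 lists. Of 145 genes in these lists, 126 passed the filter, 47 with an interval above a ratio of 1 (37.3%) and 44 with one below (34.9%). At least 2-fold higher were 2 of the 126, against 1.41% of all genes above the filter. At least 2-fold lower were 6, against 5.28%, and the median log2 fold was 0.02. Over all genes above the filter, 31.6% had an interval above a ratio of 1 and 31.1% had one below. The shares of the lists lie near these, so the lists as a whole stood close to the background. The described groups went in different directions, and the share of each list is to be read beside those of all genes.

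Among genes that degrade NRF2 or compete for KEAP1, 8 of 16 had an interval above a ratio of 1 (50%) and 3 below (18.8%). Their median was 0.13. SQSTM1, the autophagy receptor p62 that sequesters KEAP1 and is itself an NRF2 target, reached 11467 and 7818 counts in the CBS and control libraries and was at 0.45 (0.41 to 0.50). CUL3, the scaffold of the KEAP1 ligase, was at 0.34 (0.25 to 0.44), and PGAM5, a mitochondrial phosphatase that binds KEAP1, at 0.47 (0.35 to 0.59). SYVN1, an endoplasmic reticulum ligase also reported to act on NRF2, was at -0.51 (-0.61 to -0.41), or -0.33 with the GC and length trend removed.

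DNA-binding partners and cofactors were mostly lower. Of the 14 above the filter, 9 intervals lay below a ratio of 1 (64.3%, against 31.1% of all genes) and 2 above it (14.3%). Their median was -0.18, or -0.03 with the GC and length trend removed, where the median over all genes was 0.05. The small MAF proteins MAFF at -0.53 (-0.71 to -0.36) and MAFG at -0.42 (-0.59 to -0.26) were lower, as were NFE2L1, a relative of NRF2 that controls proteasome genes, at -0.44 (-0.49 to -0.39), and BACH1, which competes for the same elements. With the trend removed MAFF was at -0.24, MAFG at -0.21 and NFE2L1 at -0.29. MAFK, also a small MAF protein, was at -0.31 (-0.47 to -0.16), or -0.005 with the trend removed. BACH2 had an interval that held no difference, at 0.20 (-0.02 to 0.43). Beside NFE2L2, which differed by less than counting error, MAFF, MAFG, MAFK and BACH1 were lower on the scale of TMM-scaled counts.

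In the cystine and glutathione list, 3 of 11 genes had an interval above (27.3%) and 4 below (36.4%) a ratio of 1. Their median of -0.07 turned to 0.13 on log2(TPM + 1), to 0.03 with the GC and length trend removed and to 0.00 with plain library totals. The median over all genes above the filter also moved, to 0.09, 0.05 and 0.07 in the same order. GSR, glutathione reductase, had 2779 and 1623 counts and was at 0.68 (0.59 to 0.77), close to GCLC. SLC7A11, the cystine importer, had 1057 and 930 counts and an interval that held no difference, at 0.09 (-0.04 to 0.22). The transferases GSTP1 at -0.66 (-0.70 to -0.63) and GSTM3 at -1.32 (-1.85 to -0.96) were lower, with GSTP1 at -0.36 and GSTM3 at -1.36 once the trend was removed. In the thioredoxin list, 7 of 15 were above (46.7%) and 4 below (26.7%), with a median of 0.11. TXN at 0.11 (0.05 to 0.17) and PRDX1 at 0.12 (0.07 to 0.18) were slightly higher, and the mitochondrial peroxiredoxin PRDX3 was at 0.55 (0.46 to 0.63). The peroxiredoxin PRDX5 was lower, at -0.61 (-0.68 to -0.55), or -0.28 with the GC and length trend removed. TXNIP, which binds and inhibits thioredoxin, had 1995 and 3942 counts and was at -1.08, its interval wholly below 0, and the sestrin SESN2 at -1.75 (-1.90 to -1.62).

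Enzymes that supply NADPH had the highest list median, 0.24 over 11 genes, with 7 intervals above (63.6%) and 3 below (27.3%) a ratio of 1. ME1, malic enzyme, had 530 and 292 counts and was at 0.75 (0.55 to 0.97). The isocitrate dehydrogenases stood on opposite sides, IDH1 at 0.41 (0.32 to 0.50) and IDH2 at -0.66 (-0.91 to -0.44).

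Carbonyl and quinone enzymes split evenly, with 7 of 17 intervals above and 7 below a ratio of 1 (41.2% each). Of the 5 aldo-keto reductases listed, several of them strong NRF2 targets in human epithelium, 4 lay opposite to NQO1 and 1 on its side. AKR1C1 at -0.68 (-0.82 to -0.55), AKR1C2 at -0.86 (-0.97 to -0.76), AKR1C3 at -1.05 (-1.18 to -0.93) and AKR1B10 at -0.80 (-0.98 to -0.63) were lower, and AKR1B1, aldose reductase, was higher at 0.24 (0.14 to 0.34). AKR1C genes are near-identical copies whose reads may be split among them, but their sum of 2685 against 4593 counts was also lower, at -0.87 (-0.94 to -0.80). Genes known as targets of the same factor were found on both sides in these 2 libraries.

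Heme and iron genes had 4 of 9 intervals above (44.4%) and 3 below (33.3%) a ratio of 1. ALAS1, the first enzyme of heme synthesis, was at 0.84 (0.70 to 0.98) and the transferrin receptor TFRC at 0.72 (0.63 to 0.81), whereas BLVRB, biliverdin reductase B, was at -0.96 (-1.10 to -0.84). The ferritin chains were unlike each other, with FTH1 at -0.48 (-0.51 to -0.45) and FTL at 0.04 (-0.00 to 0.08), and processed copies of both genes limit how exactly their reads can be assigned. Among ABCC transporters and ABCG2, 5 of 12 passed the filter. ABCG2, a multidrug exporter, had 246 and 82 counts and was at 1.43 (1.12 to 1.87), and ABCC4 was at 0.96 (0.70 to 1.27), both on the other side from ABCC3, while ABCC5 was lower like ABCC3, at -0.26 (-0.45 to -0.07). ABCC2, another conjugate pump, had 10 counts in each library.

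In the list of other targets, 6 of 17 intervals lay above (35.3%) and 7 below (41.2%) a ratio of 1. TRIM16, a ubiquitin ligase reported as an NRF2 target, had 1084 and 448 counts and was at 1.17 (1.02 to 1.34). Its partial copy TRIM16L was at 0.70 (0.27 to 1.23), and their sum of 1190 against 507 counts was at 1.13 (0.98 to 1.29). GPX3, the secreted glutathione peroxidase, had 5470 and 9881 counts and was at -0.95, its interval wholly below 0, and mitochondrial SOD2 at -0.64 (-0.75 to -0.53). A further list held selenoprotein genes together with genes that make selenoproteins such as TXNRD1. In it 1 of 11 intervals was above (9.09%) and 3 below (27.3%). The 3 below were the selenoproteins GPX4, GPX1 and SELENOW, and the 1 above was SEPHS1. The list median of -0.07 turned to 0.06 on log2(TPM + 1), where the median over all genes was 0.09. SEPHS1, a selenophosphate synthetase paralog, was at 0.40 (0.29 to 0.52), while the selenoenzyme GPX4 was at -0.59 (-0.65 to -0.53) and GPX1 at -0.20 (-0.24 to -0.16). With the GC and length trend removed GPX4 was at -0.28 and GPX1 turned to 0.14, so GPX1 is given no direction.

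**Figure D4:**
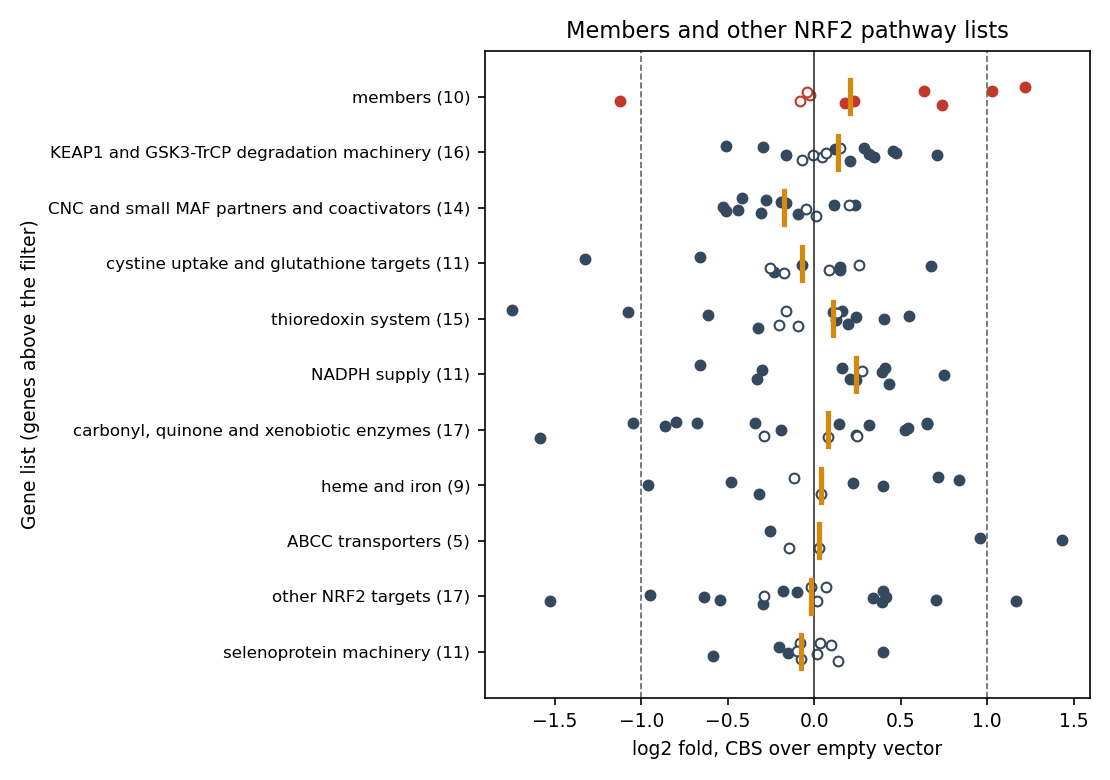
Log2 fold (CBS over empty vector) of each gene above the filter in the 10 antioxidant genes (red) and in 10 lists of other pathway genes (dark blue), with vertical jitter, orange bars at list medians and dashed lines at 2-fold. Filled points have a counting interval that leaves out a ratio of 1, and the NADPH list has the highest median of the other lists, 0.24, and the list of DNA-binding partners the lowest, -0.18.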

How the data were processed

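Total RNA of HBEC-3KT cells was sequenced on the DNBseq platform, per the labels' protocols, as 1 library per group, grouped by the genotype in the labels. Trimmomatic 0.39, STAR 2.6.1d, RSEM 1.3.2 and GRCh38 appear in the submitters' processing notes, roles not stated. The authors deposited expected counts per gene, which need not be whole, and TPM values, scaled for length and depth. Annotation release, strandedness and read layout are not given in the sources used here.

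Expected counts were rounded. The filter asked for 10 counts in 1 library and a mean CPM of 1. TMM factors came from edgeR 4.0.16 and size factors, an alternative, from DESeq2 1.42.0, with no model fitted. Log2 folds carry a prior count of 5. Intervals are exact 95% Clopper-Pearson intervals conditional on the summed count, made without the prior count, and those of gene pairs are conditional odds-ratio intervals (scipy 1.17.1). For the alternative without the GC and length trend, the longest GENCODE 29 transcript was used (99.4% of genes above the filter) with lowess fits of span 0.3. The calculation was run on simulated Poisson counts. These follow the counting error that the intervals assume and hold no spread between cultures, so the run checks the arithmetic only. Listed genes, 3 in all, whose symbols differed from the table's were matched by gene ID. Promoter windows are from RefSeq.

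The 10 genes and the lists were chosen with earlier results of these data known. Each list names up to 4 genes with at least 100 counts and the largest absolute log2 folds, and further genes from a chosen set, 1 of which is not reported here. Alternatives were DESeq2 size factors, library totals, TPM, unrounded counts, prior counts of 1 and 20, the trend removed, no filter, a filter of 100 counts, and fold thresholds of 1.5 and 4.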

Additional observations from a re-analysis of the deposited data

How the results depend on the processing

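Each of 11 alternatives was compared with the values above. Of 89 values of single genes under them, 81 lay inside the gene's counting interval, and of 90 list medians 81 moved by at most 0.1. The 2 changes of filter reuse the same folds of single genes, so those values could not move. On log2(TPM + 1), KEAP1, GCLC, NQO1, SRXN1 and ABCC3 lay outside their intervals. KEAP1 and SRXN1 also did so with the GC and length trend removed, and NFE2L2 with plain library totals. The number of the 10 genes at least 2-fold higher went from 2 to 1 on log2(TPM + 1), where OSGIN1 was at 0.92. It also went to 1 with the GC and length trend removed, where TXNRD1 was at 0.98. Without the added 1, the TPM fold of OSGIN1 was 2.16. The number at least 2-fold lower went from 1 to 0 under both. At a threshold of 1.5-fold 4 of the genes were higher, and at 4-fold 0 were higher and 0 lower. The median log2 fold of the 10 genes was 0.33 on log2(TPM + 1) and 0.32 with the trend removed. Over all genes above the filter these medians were 0.09 and 0.05. In the pathway lists, the 6 genes at least 2-fold lower became 3 on log2(TPM + 1), 16 at 1.5-fold and 0 at 4-fold, and the 2 higher became 11 at 1.5-fold and 0 at 4-fold. NFE2L2 turned to 0.05 with plain library totals, where the median over all genes was 0.07. SRXN1 turned to 0.08 as given above and HMOX1 to 0.14 with the trend removed. NFE2L2, SRXN1 and HMOX1 are therefore given no direction. Over all genes, 188 were at least 2-fold higher and 703 lower, against 377 lower on log2(TPM + 1), 121 higher at a prior count of 20, 431 higher and 1281 lower without the filter, 934 and 1712 at 1.5-fold, and 23 and 105 at 4-fold. No paired analysis was possible because each group holds 1 library. Depth limits HMOX1 most.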
